A study of Mus musculus with 7 samples.

Results

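Hes and Hey Notch effectors were followed in hippocampal neural stem cell (NSC) cultures of Med23 CKO and control mice. The 9 genes, taken by symbol, were the Hes genes Hes1, Hes5, Hes6 and Hes7, the Hey genes Hey1, Hey2 and Heyl, and Nrarp and Rbpj, out of the 24346 genes measured. Each gene was found once. RNA-seq was performed on primary neurospheres, which are floating clusters grown from dissociated NSCs, and the neurospheres of 1 mouse made 1 library. There were 4 control libraries, WT_215, WT_116, WT_213 and WT_220. The other 3, KO_117, KO_214 and KO_218, came from Med23 CKO mice. The study's text counts fewer control mice than this without naming them, and all control libraries were kept. The Med23 CKO mice were Nestin-CreER:Med23 flox/flox, so that tamoxifen-activated Cre removes the floxed Med23 exons in cells that use the Nestin promoter, among which the study also counts endothelial cells. The controls were littermates labelled wild type, and by the methods of the study such littermates carried Med23 flox/+ or Med23 flox/flox without the Cre. Both groups were C57/BL6 mice aged 2 months that had received tamoxifen by mouth at 200 mg/kg on 5 days. A recovery of 3 to 4 weeks was given for both groups.

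Notch signaling passes between touching cells. A ligand of the Delta or Jagged type on a cell releases the intracellular part of the Notch receptor in its neighbour, and this part joins the DNA-binding protein Rbpj to switch on target genes. The Hes and Hey genes are the best known of these targets and encode basic helix-loop-helix (bHLH) repressors, which in neural stem cells hold back proneural genes. Hes6 differs from the others in that its protein opposes Hes1, and it is linked with cells that move toward differentiation. Nrarp is a target whose protein damps the pathway.

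The 9 genes lie on 8 chromosomes of GRCm38, and the promoter windows of 6 of them were at hand from RefSeq (GRCm38.p6), 250 bases before to 50 after each annotated start. Hes1, Hey1 and Heyl had no entry. The windows were searched on both strands for the core letters bound by Rbpj, GTGGGAA, which read TTCCCAC on the opposite strand. The windows of Hes5, Hey2 and Nrarp are printed because the first pair each held 2 copies and Nrarp, whose level followed that of Hes5 across the libraries, held none. Each window is read 5′ to 3′ along its gene, and capitals mark the core on either strand.
Hes5, chr4:154960673-154960972, forward strand: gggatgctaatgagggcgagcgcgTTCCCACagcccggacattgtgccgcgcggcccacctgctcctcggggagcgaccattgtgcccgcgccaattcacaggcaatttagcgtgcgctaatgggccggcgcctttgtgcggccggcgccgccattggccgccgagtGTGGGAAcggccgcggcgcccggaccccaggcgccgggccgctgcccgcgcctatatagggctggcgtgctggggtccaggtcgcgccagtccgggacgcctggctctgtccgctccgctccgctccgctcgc
Hey2, chr10:30842734-30843033, reverse strand: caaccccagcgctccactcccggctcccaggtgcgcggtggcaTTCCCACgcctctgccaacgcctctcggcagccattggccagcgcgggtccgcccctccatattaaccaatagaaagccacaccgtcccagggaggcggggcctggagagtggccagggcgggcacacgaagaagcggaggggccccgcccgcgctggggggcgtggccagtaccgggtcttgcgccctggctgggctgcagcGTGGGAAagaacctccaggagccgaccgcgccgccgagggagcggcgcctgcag
Nrarp, chr2:25180508-25180807, forward strand: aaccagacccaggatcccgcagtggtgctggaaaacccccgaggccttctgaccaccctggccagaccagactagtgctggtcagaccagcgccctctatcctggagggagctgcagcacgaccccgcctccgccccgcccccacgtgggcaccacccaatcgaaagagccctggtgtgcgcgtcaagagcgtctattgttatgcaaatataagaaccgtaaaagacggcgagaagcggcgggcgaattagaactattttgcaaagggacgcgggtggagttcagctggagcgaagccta

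Counted in bases from the start site, the Hes5 matches began at -226 on the opposite strand and at -83 on the gene's own strand. In Hey2 they began at -207 on the opposite strand and at -4 on the gene's own strand. The Hes7 window (chr11:69120203-69120502, forward strand) held 1 match, at -180 on the opposite strand. No match was found in both windows of Hes6, in that of Nrarp or in both windows of Rbpj. Of 32851 promoter windows of this length in the table, 6.38% held at least 1 match and 0.256% held 2 or more. The sites that Hes proteins themselves bind were searched as the N box, CACNAG, and the class C site, CACGCG, which do not overlap the Rbpj core. The N box was in the Nrarp window at -179 and -79, in the Hes7 window at -116 and in the second Hes6 window at -237 and 16, and in 42.5% of all windows. The class C site was in the Hes7 window at -14 and in 9.27% of all windows. A match is a string of letters, and no binding was measured here.

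**Figure D1:**
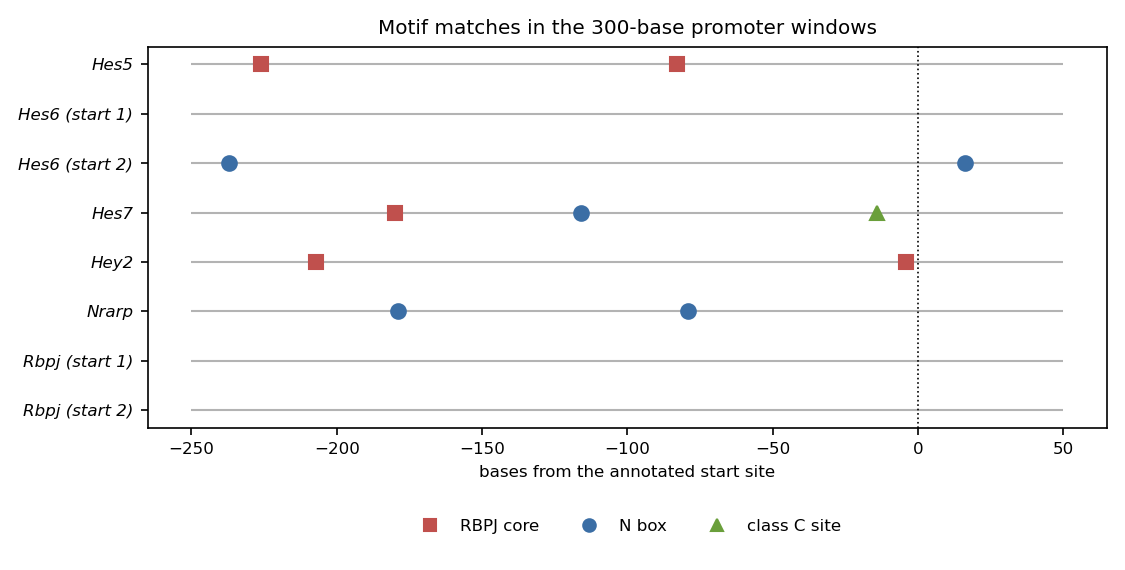
Motif matches in the 8 promoter windows of the 6 genes that had one, by distance in bases from the annotated start site. Squares are the Rbpj core, circles the N box and triangles the class C site, and Hes5 and Hey2 are the genes with 2 Rbpj cores.

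Med23 was measured first as a check of the labels. Its level was 11.4, 10.3, 12.9 and 10.1 FPKM (fragments counted per kilobase of transcript and scaled to the mapped total of the library) in WT_215, WT_116, WT_213 and WT_220, against 9.97, 9.27 and 8.12 FPKM in KO_117, KO_214 and KO_218. All 3 Med23 CKO libraries were below all 4 controls, by -0.26 in mean log2(FPKM + 1) (exact permutation test, two-sided, p = 0.0571). The FPKM takes in the whole gene, deleted and retained exons together. The neurospheres carried their defining transcripts, with Sox2 at 69.4 to 194 FPKM, Nes at 61.1 to 240 FPKM and Fabp7 at 203 to 1557 FPKM over the 7 libraries. KO_214 stood apart, since its 10 most abundant genes took 12.2% of the summed FPKM against 5.12% to 8.61% in the other libraries. It also held the highest levels of endothelial, mural and microglial markers and the lowest of proliferation markers, as given beside the genes they moved with. Differences of the 9 genes that rest on this library are given with and without it, as are those of the pathway lists whose direction it decides.

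None of the tested genes among the Hes and Hey genes, Nrarp and Rbpj differed between Med23 CKO and control neurospheres beyond the spread between mice. Of the 9 genes, 7 had a mean of at least 0.5 FPKM and were tested, and Heyl and Hes7 were below that level and are given by value alone. Hey1, Hey2 and Rbpj were higher in the mean of the Med23 CKO libraries, and Hes1, Hes5, Hes6 and Nrarp were lower. With limma, the adjusted p was 0.9999 for each, so 0 passed a threshold of 0.05, as did 0% of the 14151 genes tested. At an unadjusted p under 0.05, 0 were higher, where 0.502% of all tested genes were, and 0 were lower, where 0.996% were, a background of 1.5% in either direction. An exact permutation test over the 35 assignments of the 7 libraries cannot give a p under 0.0286, and only its most extreme assignment passes 0.05. It also called 0, but its share over all tested genes was not counted, so this count says little about the genes. The groups overlapped in all 7, and 2.32% of all tested genes had groups that did not overlap. The median difference was -0.14 over the 7 and -0.03 over all tested genes. The libraries mix all cells of the neurospheres, so fewer cells of a type and less RNA per cell cannot be told apart.

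**Figure D2:**
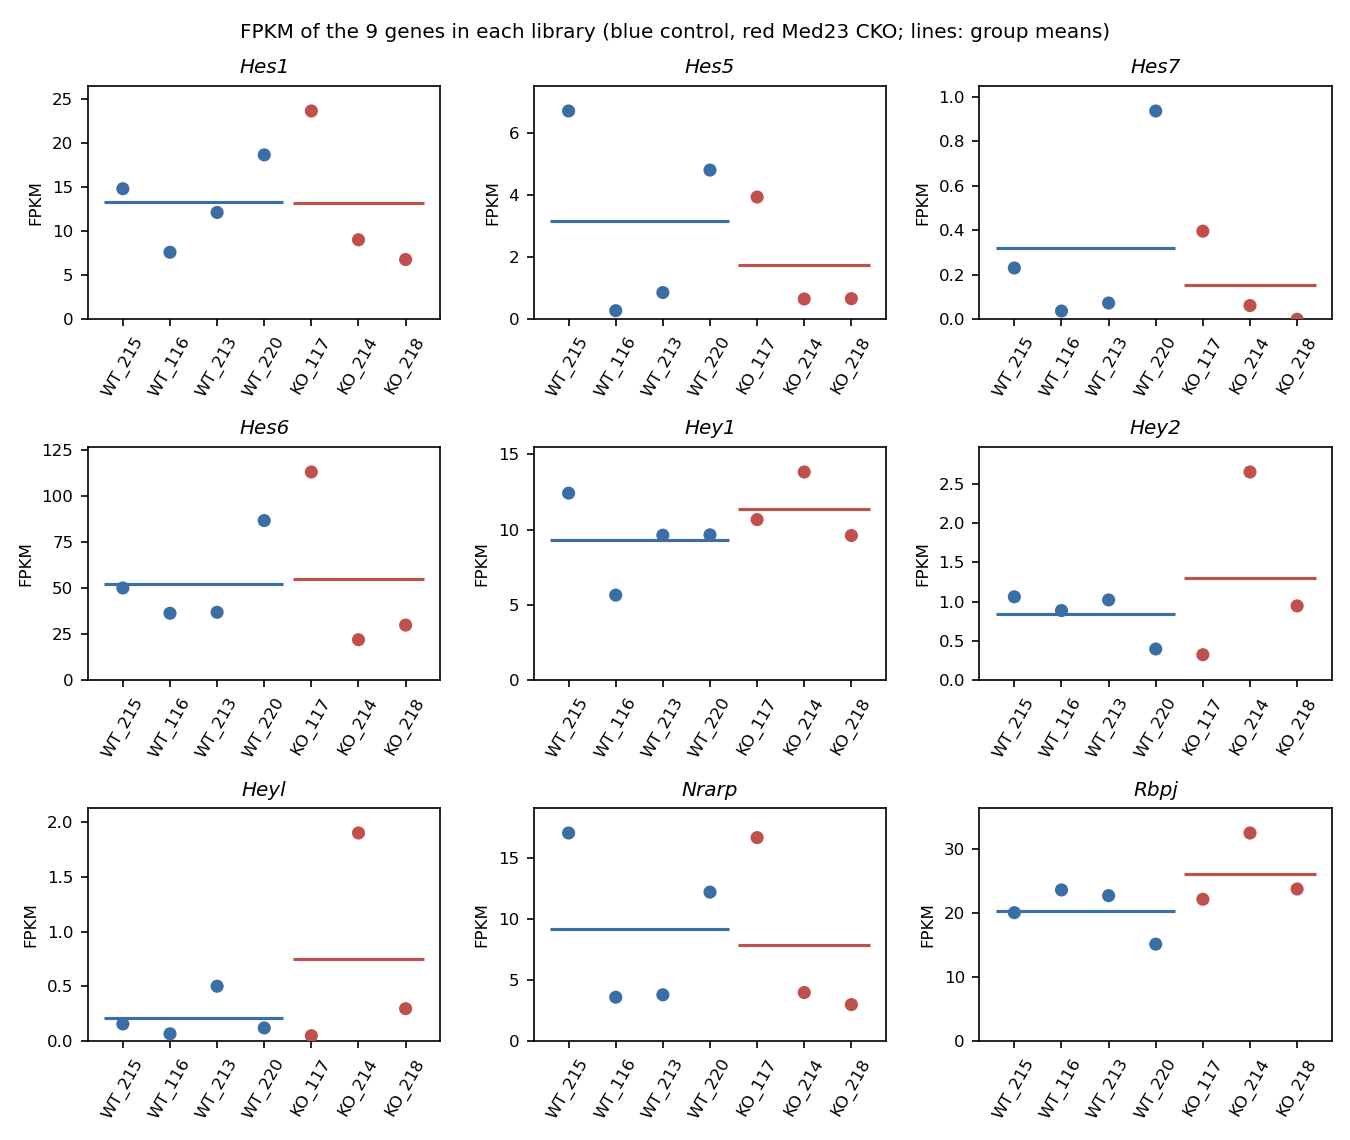
FPKM (y axis, from 0, scaled to each gene) of the 9 genes in the 4 control libraries (blue) and the 3 Med23 CKO libraries (red), with a line at each group's mean. Points of the groups overlap in each panel. Hes1, Hes5, Hes6, Hes7 and Nrarp have their 3 highest values in WT_215, WT_220 and KO_117, whereas Hey1, Hey2, Heyl and Rbpj are highest in KO_214.

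Hes1 (chr16:30064384-30067796, forward strand, GRCm38) encodes the repressor that keeps neural progenitors undifferentiated. Its level was 14.8, 7.62, 12.1 and 18.7 FPKM in WT_215, WT_116, WT_213 and WT_220, against 23.7, 9.04 and 6.79 FPKM in KO_117, KO_214 and KO_218. The highest and the lowest value were both Med23 CKO libraries. Means were 13.3 ± 4.66 FPKM (SD, n = 4) and 13.2 ± 9.17 FPKM (SD, n = 3), a difference of -0.14 in mean log2(FPKM + 1) with a standard error of 0.45 and a 95% interval of -1.18 to 0.91. Without KO_117 the difference was -0.63, without KO_214 it was 0.016, and without KO_218 it was 0.20.

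Hes5 (chr4:154960923-154962371, forward strand) is the Hes gene most closely tied to Notch activity in neural stem cells. Its level was 6.72, 0.278, 0.863 and 4.81 FPKM in WT_215, WT_116, WT_213 and WT_220, against 3.94, 0.654 and 0.665 FPKM in KO_117, KO_214 and KO_218. It was high in WT_215, WT_220 and KO_117 and under 1 FPKM in the other 4 libraries. The range was 24.2-fold and lay within the control group, between WT_116 and WT_215. Means were 3.17 ± 3.11 FPKM (SD, n = 4) and 1.75 ± 1.90 FPKM (SD, n = 3). The difference was -0.43 on the log2 scale with a 95% interval of -2.12 to 1.26, the widest of the 7 tested genes. It went from -0.95 without KO_117 to -0.01 without WT_215, and it was -0.16 without KO_214. The standard deviation of Hes5 across the 7 libraries, on the log2 scale, was larger than that of 94.1% of tested genes.

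Hes6 (chr1:91411483-91414038, reverse strand), whose protein opposes Hes1, was the most abundant of the 9. It had 50.05, 36.3, 36.9 and 86.6 FPKM in WT_215, WT_116, WT_213 and WT_220, against 113, 21.99 and 29.9 FPKM in KO_117, KO_214 and KO_218. KO_117 was above every control, and KO_214 and KO_218 were below every control. Group means were 52.5 ± 23.6 FPKM (SD, n = 4) and 55.0 ± 50.4 FPKM (SD, n = 3). Their ratio was 1.05 in favour of Med23 CKO, while the difference in mean log2(FPKM + 1) had the opposite sign, -0.21 with a 95% interval of -1.55 to 1.13. This was the only one of the 7 whose unadjusted p from limma fell under 0.05 when a library was left out, with a difference of -0.91 without KO_117. In that fit 2.9% of all tested genes were lower at an unadjusted p under 0.05, against 0.996% with all libraries. Without KO_214 the difference was 0.24.

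Hes7 (chr11:69120404-69124055, forward strand), best known from the segmentation clock of the embryo, was near the floor. It was listed at 0.230, 0.0371, 0.0729 and 0.936 FPKM in WT_215, WT_116, WT_213 and WT_220, at 0.396 and 0.0615 FPKM in KO_117 and KO_214, and at 0 in KO_218. Its 3 highest values were again in WT_220, KO_117 and WT_215. The mean log2(FPKM + 1) differed by -0.16, without a test, and by 0.038 without WT_220. A gene on the opposite strand, 9130213A22Rik, overlaps Hes7, and antisense genes likewise overlap Hes5 (Gm20421), Nrarp (Gm38287) and Rbpj (Gm10441 and Gm40304). The library kit named by the study does not mark strand, so reads of such partners cannot be told apart.

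Hey1 (chr3:8663359-8667256, reverse strand) was the most abundant Hey gene and the steadiest of the tested repressors. It had 12.4, 5.65, 9.63 and 9.65 FPKM in WT_215, WT_116, WT_213 and WT_220, against 10.7, 13.8 and 9.60 FPKM in KO_117, KO_214 and KO_218. WT_116 was low and the other 6 libraries lay between 9.60 and 13.8 FPKM. Means were 9.34 ± 2.78 FPKM (SD, n = 4) and 11.4 ± 2.19 FPKM (SD, n = 3), a log2 difference of 0.29 with a standard error of 0.27 and a 95% interval of -0.35 to 0.93. It was 0.09 without WT_116, 0.15 without KO_214 and 0.43 without WT_215.

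Hey2 (chr10:30832359-30842801, reverse strand), which is known for its part in arteries and the heart as well as in neural progenitors, was low. It had 1.06, 0.887, 1.02 and 0.398 FPKM in WT_215, WT_116, WT_213 and WT_220, against 0.325, 2.65 and 0.946 FPKM in KO_117, KO_214 and KO_218. KO_214 alone was above the controls, and KO_117 was the lowest of the 7. Means were 0.842 ± 0.306 FPKM (SD, n = 4) and 1.31 ± 1.204 FPKM (SD, n = 3), a log2 difference of 0.21 with a 95% interval of -0.62 to 1.05. Without KO_214 the difference was -0.18.

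Heyl (chr4:123233556-123249875, forward strand), a Notch target in vascular smooth muscle, had the widest range among those of the 9 that were above 0 in each library. It had 0.158, 0.0681, 0.502 and 0.122 FPKM in WT_215, WT_116, WT_213 and WT_220, against 0.0503, 1.90 and 0.297 FPKM in KO_117, KO_214 and KO_218. KO_214 was 37.8 times KO_117, and the other Med23 CKO libraries lay below the highest control or below all of them. The ratio of the group means, 3.53, came with a log2 difference of 0.40 that was -0.042 without KO_214 and 0.69 without KO_117. The difference was 0.84 with a pseudocount of 0.1. With no filter on low values, limma gave an unadjusted p of 0.279.

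Markers of vascular and immune cells and of astrocytes were highest in KO_214, the library in which Heyl and Hey2 were highest. Of 12 endothelial markers, 12 had their highest value in KO_214, and their summed level was 19.2 to 94.8 FPKM in control and 17.7 to 169 FPKM in Med23 CKO libraries. Of 10 mural cell markers, 9 were highest in KO_214, with sums of 47.5 to 180 FPKM in control and 19.9 to 569 FPKM in Med23 CKO. Of 13 microglial markers, 11 were highest there, with sums of 39.0 to 249 FPKM in control and 41.6 to 1115 FPKM in Med23 CKO. Of 7 astrocyte markers, 4 were highest in KO_214, with sums of 310.2 to 503.6 FPKM in control and 231 to 804 FPKM in Med23 CKO. The 3 libraries with the highest Heyl, which were KO_214, WT_213 and KO_218 in that order, were also the 3 with the highest mean endothelial log2(FPKM + 1), at 3.61, 2.78 and 2.24, and KO_117 was the lowest for both. The astrocyte mean was highest in the same 3 libraries, at 5.74 in KO_214, 5.22 in KO_218 and 5.12 in WT_213, and lowest in KO_117, at 3.53. No marker of these lists was at 0 in all libraries. The part of these cells in the levels of Hey2 and Heyl was not tested.

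Nrarp (chr2:25180758-25183339, forward strand) is the feedback inhibitor and has a single exon. It had 17.0, 3.59, 3.79 and 12.2 FPKM in WT_215, WT_116, WT_213 and WT_220, against 16.6, 3.98 and 2.99 FPKM in KO_117, KO_214 and KO_218. Its values fell into a high set of WT_215, KO_117 and WT_220 and a low set of the other 4 libraries, each with mice of both groups. Means were 9.14 ± 6.59 FPKM (SD, n = 4) and 7.87 ± 7.601 FPKM (SD, n = 3), a log2 difference of -0.27 with a 95% interval of -1.87 to 1.33. Left-out libraries moved it from -0.93 without KO_117 to 0.14 without KO_218, and it was -0.02 without KO_214. Its standard deviation was larger than that of 92.8% of tested genes.

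Rbpj (chr5:53466152-53657362, forward strand) encodes the DNA-binding partner of Notch. It had 20.02, 23.6, 22.7 and 15.1 FPKM in WT_215, WT_116, WT_213 and WT_220, against 22.1, 32.4 and 23.7 FPKM in KO_117, KO_214 and KO_218. KO_214 was high, WT_220 was low, and the other 5 lay between 20.02 and 23.7 FPKM. Means were 20.3 ± 3.79 FPKM (SD, n = 4) and 26.1 ± 5.55 FPKM (SD, n = 3), a log2 difference of 0.34 with a standard error of 0.22 and a 95% interval of -0.17 to 0.86. It had the smallest unadjusted p of the 7 (limma, p = 0.162, adjusted p = 0.9999), and the exact permutation test gave p = 0.229. The difference was 0.18 without KO_214 and 0.45 without KO_117. Processed pseudogenes of Rbpj on chromosomes 4 and 6 may share reads with it, and they had no rows of their own.

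**Figure D3:**
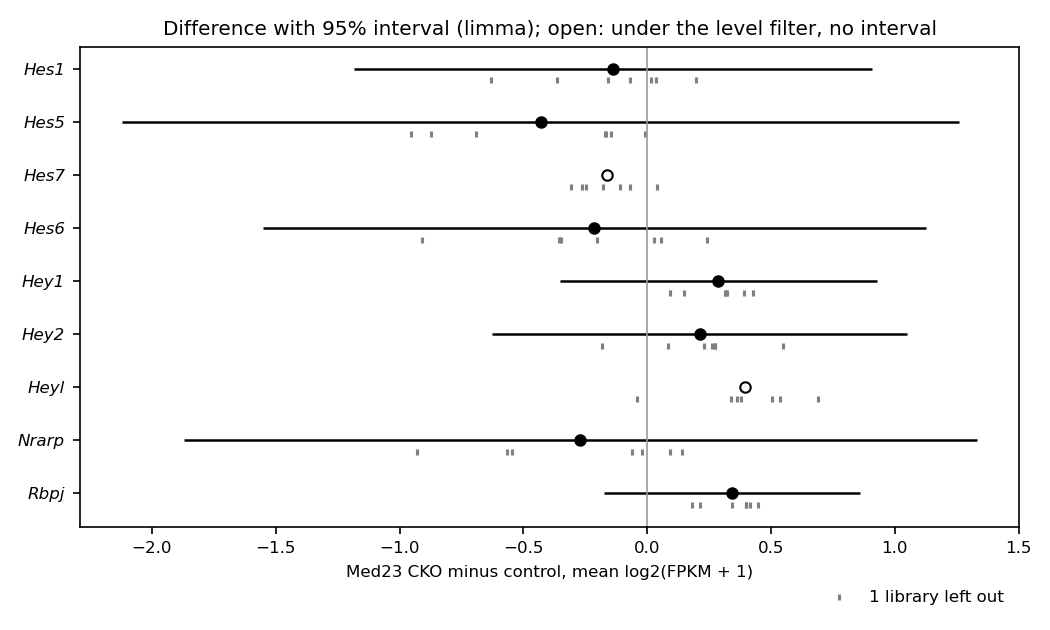
Difference in mean log2(FPKM + 1), Med23 CKO minus control, with the 95% interval from limma for the 7 tested genes (filled points) and without one for Hes7 and Heyl (open points). Grey ticks are the values with 1 library left out, every interval crosses 0, and ticks of Hes1, Hes6, Hes7, Hey2, Heyl and Nrarp lie on both sides of 0.

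In order of mean FPKM over the 7 libraries, which is a scale per length, the genes were Hes6 (53.5), Rbpj (22.8), Hes1 (13.3), Hey1 (10.2), Nrarp (8.59), Hes5 (2.56), Hey2 (1.04), Heyl (0.442) and Hes7 (0.248). Neighbours in this order were compared within libraries by exact two-sided sign-flip permutation tests, 8 in all. Nrarp was above Hes5 in 7 of 7 libraries and Hey2 above Heyl in 7 of 7 (each exact p = 0.0156, the smallest possible, adjusted 0.0625). Hes6 was above Rbpj in 6 of 7 (exact p = 0.0469, adjusted 0.125) and Rbpj above Hes1 in 5 of 7 (exact p = 0.0625, adjusted 0.125). For the other 4 pairs the exact p was 0.219 to 0.625, and none of the 8 passed 0.05 after adjustment. For Nrarp over Hes5 the mean log2 difference was 1.47 with an SD of 0.285 over the libraries. For Hey2 over Heyl it was 0.52 with an SD of 0.228. The pairs and their order came from these same values, so the tests do not stand as separate support for the order.

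The balance between members differed from mouse to mouse. The ratio of Hes6 to Hes1 kept within 2.43 and 4.77, a 1.96-fold range over the 7 libraries. The ratio of Hes5 to Hes1 ran from 0.0365 in WT_116 to 0.453 in WT_215, a 12.4-fold range inside the control group. Nrarp was 0.312 to 1.15 of Hes1, and Hey1 was 0.450 to 1.53 of it, with the highest values in KO_214 and KO_218 (1.53 and 1.41) and the lowest in KO_117. The ratio of Rbpj to Hes1 was lowest in WT_220 (0.809) and KO_117 (0.934) and highest in KO_214 (3.59) and KO_218 (3.49).

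The 9 genes followed a pair of patterns across the libraries. Hes1, Hes5, Hes6, Hes7 and Nrarp, 5 of 9, had their 3 highest values in WT_215, WT_220 and KO_117, mice of both genotypes. This was seen after the values were known and is no group of the study. Among tested genes, 4 of the 7 members and 26.1% of all had the same 3 libraries on top, the most frequent of the 35 sets of 3. Hey1, Hey2, Heyl and Rbpj, 4 of 9 with the untested Heyl, were highest in KO_214, as were 25.4% of all tested genes. Proliferation markers were high in the first set of libraries, with a mean log2(FPKM + 1) of 6.65 in WT_215, 6.66 in WT_220 and 7.08 in KO_117 against 4.89 in WT_116, 5.68 in WT_213, 3.75 in KO_214 and 5.92 in KO_218. Their summed level was 316 to 752 FPKM in control and 214.6 to 966 FPKM in Med23 CKO libraries. Neural stem and radial glia markers, with a list mean of 6.26 to 6.90, went both ways. Sox2 (155, 191 and 194 FPKM in WT_215, WT_220 and KO_117), Nes (144, 186 and 240 FPKM) and Fabp7 (1557, 1518 and 1501 FPKM) had their 3 highest values in the same libraries as the Hes genes, where Hopx (108, 90.1 and 53.8 FPKM) and Prom1 (4.11, 2.46 and 2.64 FPKM) had their 3 lowest. The astrocyte mean was lowest in these libraries, at 4.45, 3.84 and 3.53 against 4.69 to 5.74 in the others, but its markers did not all fall together. Aldh1l1 had 90.2, 197 and 123 FPKM in WT_215, WT_220 and KO_117, against 44.3 to 102 FPKM in the others. The part of cell division or of cell makeup in these levels was not tested.

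**Figure D4:**
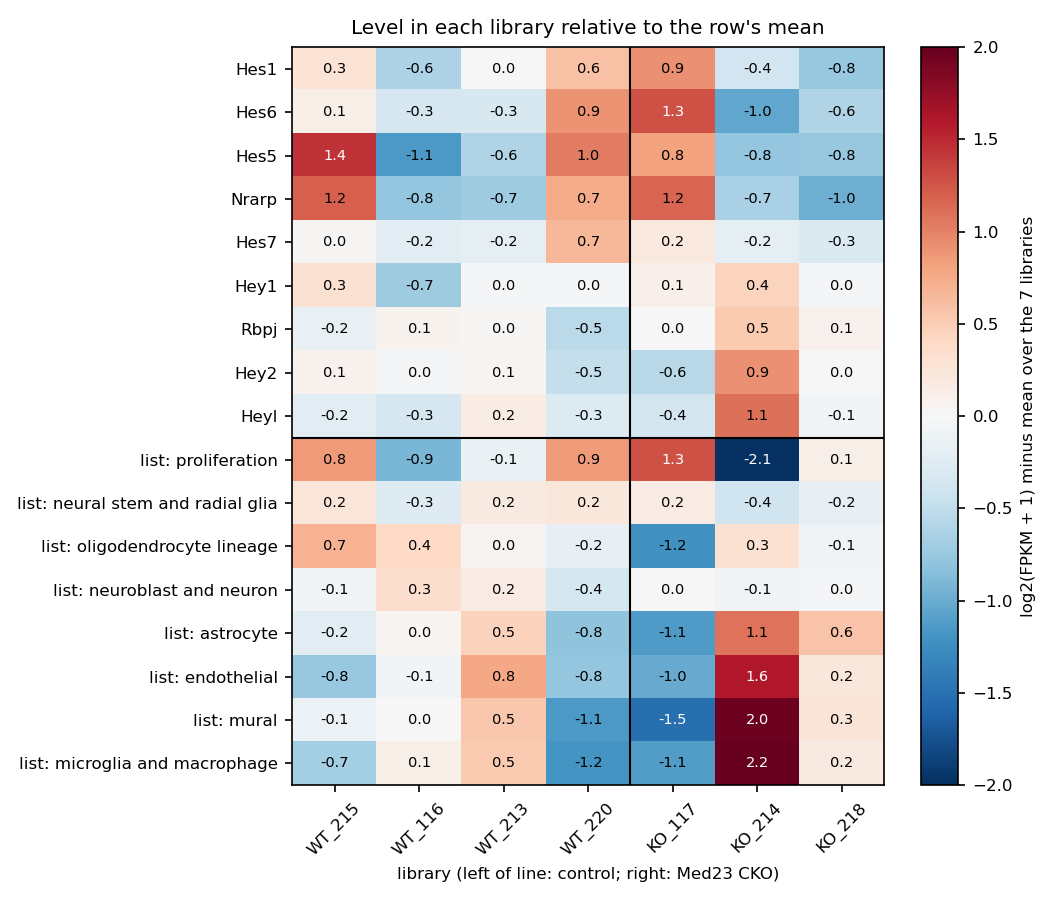
Level of each of the 9 genes, and mean level of 8 lists of cell type and proliferation markers, in each library as log2(FPKM + 1) minus the row's mean over the 7 libraries (color and printed value). The Hes genes, Nrarp and the proliferation list are highest in WT_215, WT_220 and KO_117, though Hes6 and Hes7 lie close to the row's mean in WT_215. Red in KO_214 marks Hey2, Heyl and the endothelial, mural and microglial lists.

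Likeness of 2 genes was measured as the root mean square (RMS) difference of their centred log2(FPKM + 1) profiles over the 7 libraries, as a description over libraries that share depth and cell makeup. Hes5 and Nrarp were the closest pair of the 7 tested members, at 0.264, where the profile of Hes5 itself had an RMS of 0.977. Nrarp ranked 5 among all tested genes in likeness to Hes5, and Hes5 ranked 11 in likeness to Nrarp. Hey2 and Rbpj were 0.273 apart, close to the RMS of 0.290 of the Rbpj profile itself, and Rbpj ranked only 860 in likeness to Hey2. Hes1 and Hes6 were 0.352 apart, and Hes1 ranked 564 in likeness to Hes6. Hes5 and Hey2, the genes whose windows each held 2 Rbpj cores, were the farthest pair at 1.26.

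Among all tested genes, Hes1 was followed most closely by Pcnt, which encodes the centrosome protein pericentrin (RMS 0.0969), by Arl10 (0.0974) and by Rdm1 (0.120). Hes5 was followed by the kinase gene Map3k1 (0.127), Brinp2 (0.221) and Tnr, which encodes tenascin-R of the brain's extracellular matrix (0.224). Hes6 was followed by Mvd, an enzyme gene of cholesterol synthesis (0.129), Sema4g (0.133) and Mthfd1l, an enzyme gene of mitochondrial folate metabolism (0.133). Map3k1 (0.225) was also among the nearest 3 of Nrarp, after the cation transporter gene Slc22a3 (0.176) and Sh3bp4 (0.210). Hey1 was followed by the ubiquitin ligase gene Cblb (0.110), the metalloprotease inhibitor gene Reck (0.115) and Mpp6 (0.124). Hey2 was followed by the zinc transporter gene Slc39a8 (0.0644), Prss57 (0.0683) and Jph2 (0.0748). Rbpj was followed by Twsg1, which encodes a modulator of BMP signals (0.0581), Nus1 (0.0649) and Pcyox1 (0.0675).

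The rest of the pathway was followed in 7 lists with 77 genes in the table, of which 68 were tested. Of these, 31 were higher and 37 lower in the mean of Med23 CKO, 1 and 2 of them at an unadjusted p under 0.05 (limma), against 0.502% and 0.996% of all tested genes. Groups did not overlap in 3 of the 68, against 2.32% of all tested genes, and the median difference was -0.02. The division was 25 higher and 43 lower without KO_214, and 44 higher and 24 lower without KO_218, where the median was 0.07. All 3 called genes were Notch ligands, the signals that act upstream of Hes and Hey genes, and 0 passed the adjusted threshold.

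Jag1, a Jagged-type ligand, had 16.04, 15.4, 19.8 and 10.6 FPKM in WT_215, WT_116, WT_213 and WT_220, against 26.5, 36.2 and 28.5 FPKM in KO_117, KO_214 and KO_218. All 3 Med23 CKO libraries were above all controls, by 0.95 on the log2 scale (exact permutation p = 0.0286, the smallest possible, limma adjusted p = 0.9999). Dll1, a Delta-type ligand, had 16.8, 12.2, 10.7 and 19.4 FPKM in the controls and 10.2, 7.78 and 6.47 FPKM in Med23 CKO, in the same order. Dner, a ligand of neurons and glia, had 50.7, 70.6, 45.4 and 49.96 FPKM and then 41.3, 34.7 and 35.9 FPKM. Both lay below all controls in Med23 CKO, by -0.77 for Dll1 and by -0.51 for Dner (each exact permutation p = 0.0571, limma adjusted p = 0.9999). With any 1 library left out, Jag1 stayed under an unadjusted p of 0.05. Dll1 did not without WT_215, KO_214 or KO_218, and Dner did not without WT_215, WT_116, KO_214 or KO_218, though their differences stayed negative. Of the 8 ligands, 2 were higher and 6 lower, with a median of -0.44. Dll3, which had 22.02, 1.82, 4.42 and 24.6 FPKM in the controls and 26.9, 0.560 and 4.55 FPKM in Med23 CKO, was high in the libraries that were high for Hes5 and Nrarp.

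Of the 4 receptors, 4 had a positive difference, with a median of 0.08, and 0 passed an unadjusted p under 0.05. This direction rested on KO_214 and WT_220, since 2 were higher and 2 lower without either and 3 or 4 were higher without any other library, and the median without KO_214 was -0.18. Without KO_117 the median was 0.35 and Notch4 was higher at an unadjusted p under 0.05 (limma), as were 2.5% of all tested genes. Without KO_214 the differences of Notch2 and Notch3, 0.015 each with all libraries, were -0.38 and -0.43. Notch1 had 37.0, 13.8, 21.4 and 32.7 FPKM in the controls and 66.0, 17.1 and 17.5 FPKM in Med23 CKO. Its highest 3 libraries, KO_117, WT_215 and WT_220, were those of Hes1 and Nrarp. Notch2, Notch3 and Notch4 were highest in KO_214, as Hey2 and Heyl were, at 8.36, 14.7 and 5.21 FPKM. The 25 genes of receptor processing and endocytosis, such as the sheddase gene Adam10 and the gamma-secretase genes Ncstn, Aph1a and Psenen, were all tested, and 12 were higher, 13 lower and 0 called, with a median of -0.02 that was 0.09 without KO_218.

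Of 17 Rbpj coactivators and corepressors, 16 were tested, with 6 higher, 10 lower, 0 called and a median of -0.07, which was 0.06 without KO_218. Snw1, which encodes a nuclear partner of Rbpj, kept within 35.4 and 40.5 FPKM in all 7 libraries. A list of Tle family genes and Runx1 stood for the corepressors of Hes proteins. Of these, 6 were tested, with 1 higher, which was Runx1, 5 lower, 0 called and a median of -0.17, which was 0.04 without KO_218. Tle2 had the largest difference of these, -1.15 (exact permutation p = 0.143, limma adjusted p = 0.9999), with 40.5, 12.5, 22.4 and 46.6 FPKM in the controls and 24.2, 7.84 and 8.06 FPKM in Med23 CKO. Its unadjusted p from limma fell under 0.05 without WT_116 and without KO_117. The other bHLH repressors and Id proteins had 6 of 9 genes tested, with 5 higher, 1 lower, 0 called and a median of 0.20. Without KO_214, 1 was higher and 5 lower with a median of -0.20, and Id1, at 52.1 FPKM in KO_214 and 12.01 to 23.98 FPKM elsewhere, went from 0.02 to -0.58.

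Of the 8 proneural genes that Hes proteins hold back, 3 were tested, with 1 higher, 2 lower, 0 called and a median of -0.31, which was 0.025 without KO_214.

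**Figure D5:**
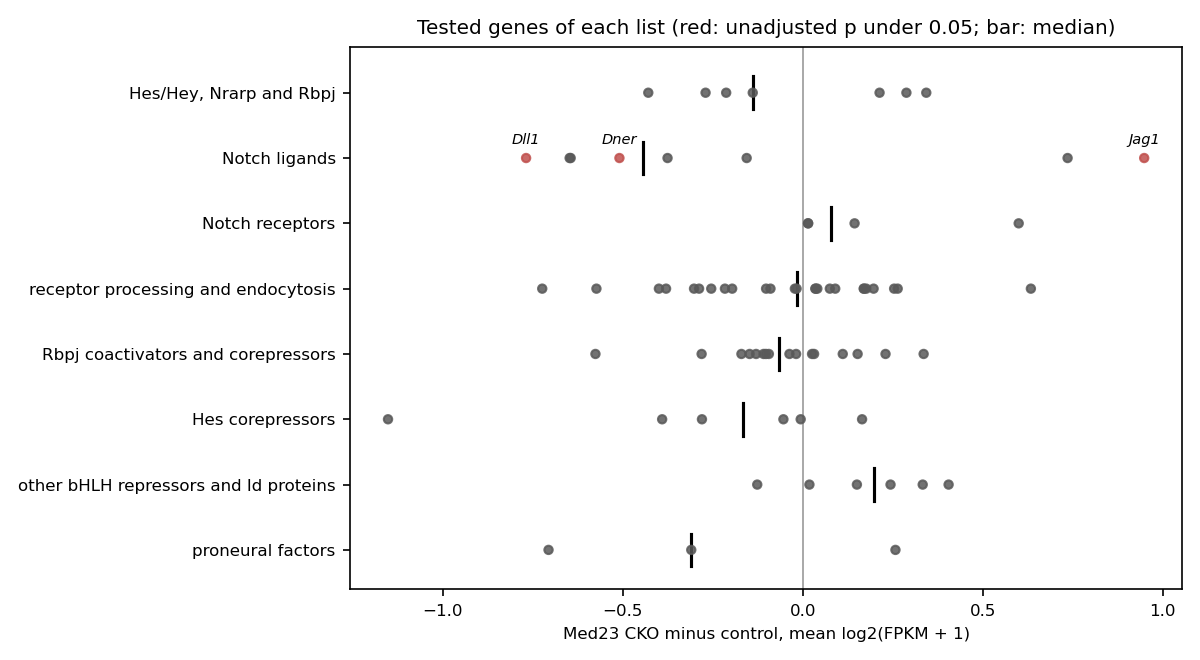
Difference in mean log2(FPKM + 1), Med23 CKO minus control, of each tested gene among the Hes and Hey genes with Nrarp and Rbpj, and in 7 lists of the Notch pathway, with a bar at each median. Red points, at an unadjusted p under 0.05, are the ligands Jag1 (0.95), Dll1 (-0.77) and Dner (-0.51).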

How the data were processed

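RNA-seq of primary neurospheres was measured in 7 libraries, 4 control and 3 Med23 CKO, matched to group and mouse by sample title. The authors removed adapters with cutadapt, aligned reads to mm10 with TopHat at default settings and calculated FPKM per gene with Cuffdiff, and they deposited FPKM per library. The deposited group means and the authors' comparison columns (log2 fold change, test statistic, p and q) were not used, and 0 columns lacked a group. Labels and the study's methods differ on the age at tamoxifen. Low FPKM values gave no whole fragments, since no more than 3.05% of low genes fell in a single bin of 0.05 log2 in any of the 21 library pairs, so depth is unknown and the number of libraries limits the precision. No 2 libraries were identical.

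A pseudocount of 1 was added and log2(FPKM + 1) was tested for genes with a mean of at least 0.5 FPKM over all libraries. Fold changes on this scale understate those of low genes. Groups were compared with limma 3.58.1 (trend) in R 4.3.3, two-sided, with Benjamini-Hochberg adjustment over all 14151 genes, and single genes with exact permutation. The fit was tried on simulated data in which each gene varied on its own, so its behaviour on libraries with shared patterns was not tested. Correlations between libraries over all genes were 0.907 to 0.990. Python 3.11.15, numpy 2.4.6, scipy 1.17.1 and pandas 2.3.3 were used for the rest. The members, lists and tests were chosen with earlier results of these data known. Genes named were the 9 members, Med23, list genes at an unadjusted p under 0.05, up to 4 of the most abundant per list, the 3 nearest profiles per tested member, markers, and Runx1. The values of 1 list gene are not reported here. Tle5 is the current symbol of Aes and is counted once, as Aes, and Helt was at 0 throughout. Gene positions are from GENCODE M21 on GRCm38, which is mm10. Alternatives were a pseudocount of 0.1, no filter, a mean of at least 1 FPKM, quantile normalization, median centring, robust empirical Bayes in limma (statmod 1.5.0), limma without its trend, array weights, a covariate for the leading digit of the mouse numbers, and each library left out, which was applied to the pathway lists after their values were seen.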

Additional observations from a re-analysis of the deposited data

How the results depend on the processing

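Directions of Hes5, Hey1 and Rbpj held under every alternative run. Leaving out each library in turn gave ranges of -0.63 to 0.20 for Hes1, -0.91 to 0.24 for Hes6, -0.31 to 0.038 for Hes7, -0.18 to 0.55 for Hey2, -0.042 to 0.69 for Heyl and -0.93 to 0.14 for Nrarp, so that each of these changed sign. The number of these genes at an unadjusted p under 0.05 was 0 to 1, the 1 being Hes6 without KO_117. Over all tested genes, leaving out libraries gave 45 to 354 higher genes (71 with all libraries) and 70 to 410 lower (141). Both numbers were largest without KO_117. With a library left out, 0 to 1 genes were past the adjusted threshold. Array weights gave 193 higher and 887 lower, though the fit of the weights stopped before it converged, and moved Hes1 to -0.63, Hes5 to -0.78, Hes6 to -0.46, Nrarp to -0.81, Hey1 to 0.07, Hey2 to 0.07 and Rbpj to 0.21. No filter on low values gave 140 higher. A pseudocount of 0.1 moved Hes7 to -0.59 and Heyl to 0.84. The alternatives that kept all libraries reversed 0 of 67 values of single genes. The cause was not tested. No paired analysis was possible because the groups share no replicate numbers. With 3 and 4 libraries the intervals are wide, and a p that misses the threshold does not show that levels were alike.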
